A study of Homo sapiens with 8 samples.

Results

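The subject is a 400 kb stretch of human chromosome 9 that holds the genes UGCG and SUSD1, described by the H3K27ac peaks called there in A549 cells with and without CEBPB knockdown. Its members are all peaks that overlap chr9:114600001-115000000 in hg19. There are 127 of them, out of 186774 peaks on chromosomes 1 to 22 and X in the 4 lists. The siRNA-1 list has 39, the siRNA-2 list 40, the list of control 1 has 22 and that of control 2 has 26. The stretch was chosen from these same lists for its greater called length after knockdown. The direction of that difference is therefore given as a description, with no test.

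A549 is an established line of human lung adenocarcinoma cells, and per the title of the study its NRF2, a regulator of the response to oxidative stress, is activated. Cells were transfected with CEBPB siRNA-1 (1 library), CEBPB siRNA-2 (1 library) or a control siRNA (2 libraries, control 1 and control 2), and chromatin was taken 48 h later. All were grown in the same medium. CEBPB is a basic leucine zipper transcription factor, and how far the siRNAs lowered it is not measured by these libraries. The knockdown was transient and each siRNA has 1 library, so a difference between the siRNAs has no replicate. Nothing in the labels says that the controls came from separate cultures, so their spread may be technical.

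UGCG encodes UDP-glucose ceramide glucosyltransferase, a Golgi enzyme that adds glucose to ceramide. Glucosylceramide, its product, is the precursor of most glycosphingolipids, and raised UGCG activity is known from drug-resistant cancer cells. SUSD1 encodes a membrane protein with sushi domains whose function is little known. H3K27ac marks active promoters and enhancers, and long runs of closely spaced acetylated elements are often described as enhancer clusters.

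In hg19 coordinates given to 1 kb, UGCG spans 114.659 to 114.698 Mb and SUSD1 spans 114.803 to 114.938 Mb. UGCG lies on the plus strand and SUSD1 on the minus strand. The 105 kb between them thus lie between their 3′ ends, and their promoters lie at the outer ends of the pair. No exon or intron positions of that build were used here, so peaks inside a gene are placed by its span alone.

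The promoter sequences are shown because each gene has an acetylated peak at its 5′ end in every library, near the outer ends of the acetylated stretch. They come from the RefSeq promoter table on GRCh38.p14, whose positions cannot be set beside the hg19 peaks, and cover 250 bases before and 50 after the start of the gene. UGCG is read from chr9:111896564-111896863 on the plus strand, and SUSD1 from chr9:112175248-112175547 on the minus strand. Capitals mark matches on either strand to the motifs searched, namely TTGCGCAA and TTGCNNAA (C/EBP type), TGACNNNGC (antioxidant response element), TGANTCA (AP-1) and GGGCGG (GC box). The GC box was added after the sequences had been seen.
UGCG: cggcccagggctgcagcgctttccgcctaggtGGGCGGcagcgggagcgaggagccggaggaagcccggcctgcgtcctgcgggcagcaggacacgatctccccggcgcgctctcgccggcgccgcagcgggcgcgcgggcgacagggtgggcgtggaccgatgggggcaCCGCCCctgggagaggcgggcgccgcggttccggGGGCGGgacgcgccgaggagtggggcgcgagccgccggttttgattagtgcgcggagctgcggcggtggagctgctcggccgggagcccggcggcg
SUSD1: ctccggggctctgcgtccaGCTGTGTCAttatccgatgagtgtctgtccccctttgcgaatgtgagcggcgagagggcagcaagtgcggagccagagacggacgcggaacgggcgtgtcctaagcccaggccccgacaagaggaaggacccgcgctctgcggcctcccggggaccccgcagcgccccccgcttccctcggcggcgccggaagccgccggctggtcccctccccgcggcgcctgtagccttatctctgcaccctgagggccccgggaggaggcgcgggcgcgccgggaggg

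The UGCG promoter held 3 GC boxes, a motif found in 45.0% of the 35116 promoters of that length in the table. The SUSD1 promoter held 1 match to the antioxidant response element, on its reverse strand, as 13.3% of promoters did on either strand. Neither window held TTGCGCAA (in 0.151% of promoters), TTGCNNAA (10.5%) or TGANTCA (7.71%). These motifs may overlap, since TTGCNNAA includes TTGCGCAA. Both promoters were rich in G and C, at 79.0% for UGCG and 72.7% for SUSD1 against a median of 58.7%. UGCG had 48 CpG steps and SUSD1 had 35, against a median of 14.

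More of the stretch was called as acetylated with each siRNA than in either control. Called length, the sum of the peak lengths, was 114 kb under siRNA-1 and 75.3 kb under siRNA-2, against 46.0 kb in control 1 and 44.2 kb in control 2. It averaged 94.9 ± 27.7 kb after knockdown and 45.1 ± 1.27 kb in controls (SD, n = 2 each), a difference of 49.7 kb or 2.10 times. Without siRNA-1 the difference was 30.2 kb. The groups did not overlap, and the controls lay within 1.80 kb of each other while the siRNAs differed by 39.1 kb. More called length in both knockdown libraries than in both controls, by any amount, was seen in 32% of the 5966 windows of 400 kb that held a peak, and 27.7% showed the opposite. The stretch was chosen on this contrast, so nothing is read from this share or from the shares of windows and regions given further on. Peak lengths depend on the depth of each library, which is unknown here. Within the numbers of the labels, siRNA-1 had 68.4 kb more than control 1 and siRNA-2 had 31.1 kb more than control 2.

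**Figure D1:**
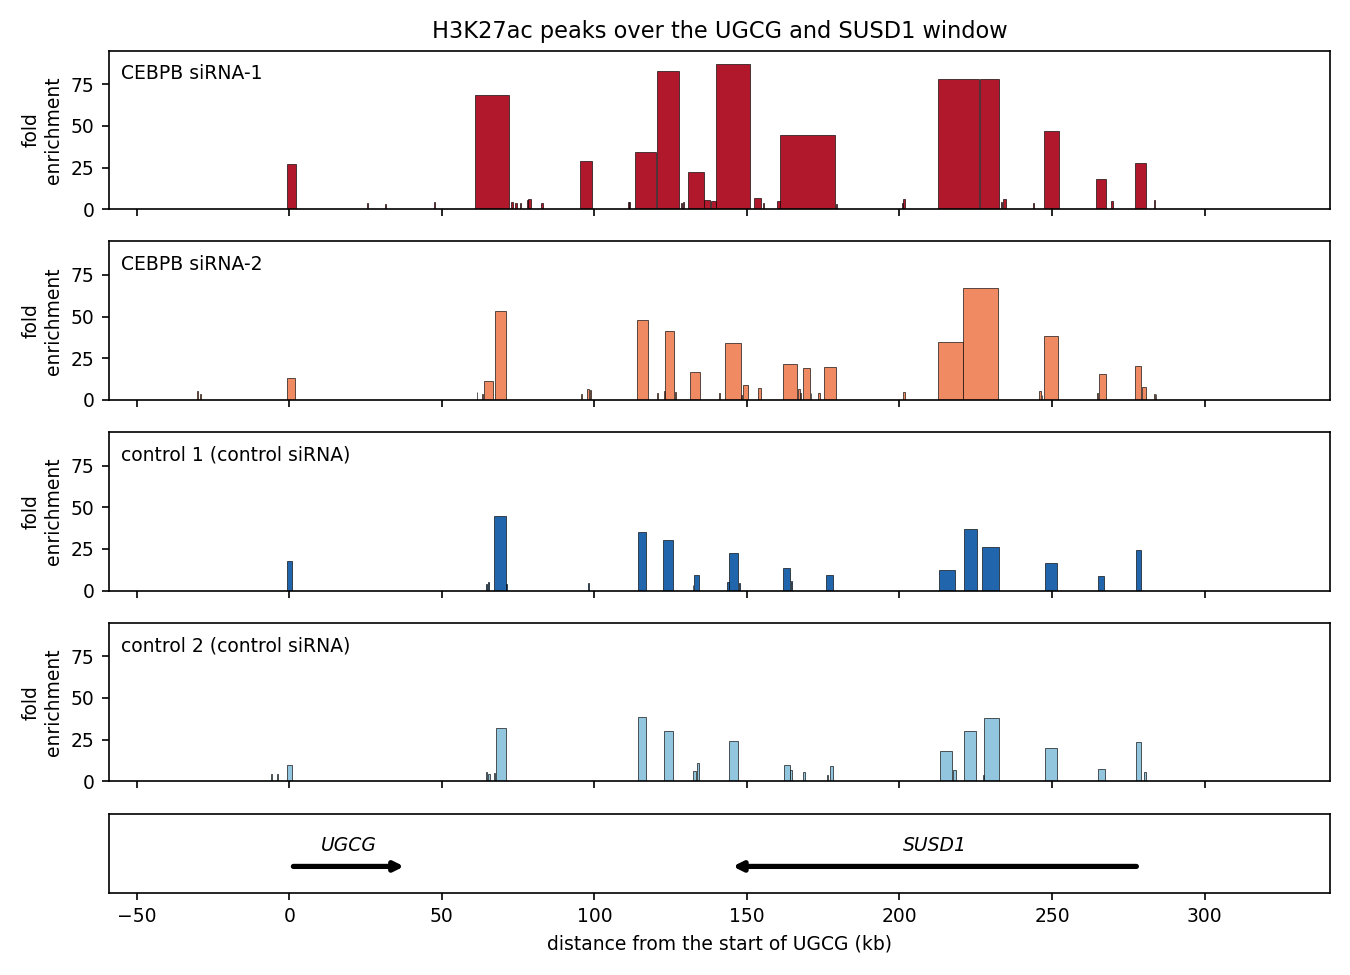
H3K27ac peaks over the UGCG and SUSD1 window in the 4 libraries, as bars from start to end of each peak with the authors' fold enrichment as height, against the distance from the start of UGCG in kb; arrows show the genes and their direction. The longest peak of each library lies in SUSD1, with 18.1 kb for siRNA-1, 11.4 kb for siRNA-2, 5.41 kb in control 1 and 4.76 kb in control 2.

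The knockdown lists held more peaks, while the strong peaks differed in length more than in number. There were 39.5 ± 0.707 peaks after knockdown and 24.0 ± 2.83 in controls (SD, n = 2 each). More peaks in both knockdown libraries than in both controls were seen in 23.4% of windows. Peaks with a −log10 q of 10 or more numbered 14 under siRNA-1 and 18 under siRNA-2, against 14 in control 1 and 17 in control 2. Those strong peaks covered 100.5 kb under siRNA-1 and 67.0 kb under siRNA-2, against 42.8 kb in control 1 and 40.4 kb in control 2. The strong peaks thus carried most of the called length in every library. The same held for the whole lists, at 60.9 of 70.4 Mb under siRNA-1 and 52.1 of 61.7 Mb under siRNA-2. In controls 1 and 2 it was 58.1 of 67.9 Mb and 52.0 of 62.1 Mb. Over all peaks of the stretch, the median length was lower after knockdown. It was 763 bp under siRNA-1 and 694 bp under siRNA-2, against 1889 bp in control 1 and 996 bp in control 2. Peaks longer than 5 kb numbered 9 under siRNA-1 and 3 under siRNA-2, against 2 in control 1 and 0 in control 2. Longer than 10 kb were 4 under siRNA-1, 1 under siRNA-2 and 0 in each control. In the whole lists such peaks numbered 479 of 47370 under siRNA-1 and 300 of 48216 under siRNA-2. In controls 1 and 2 they numbered 444 of 45537 and 347 of 45651.

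Chains of peaks reached about as far with both siRNAs. With peaks joined where at most 10 kb apart, the longest chain measured 68.6 kb under siRNA-1 (chr9:114769935-114838534) and 65.4 kb under siRNA-2 (chr9:114772880-114838229). In control 1 it measured 33.5 kb (chr9:114773184-114806716) and in control 2 it was 33.0 kb (chr9:114773183-114806151). The chains began close together in all 4 libraries and crossed the 3′ end of SUSD1 in all, and with each siRNA they ran further into that gene. Control peaks were called there too, from 114820919 to 114837212 in control 1 and from 114821142 to 114837129 in control 2. Those lay past a gap of more than 10 kb and so were not joined to the control chains. Under siRNA-2 a peak of 934 bp (chr9:114812603-114813536) lay in that gap and linked the chain. The longest chains averaged 67.0 ± 2.30 kb after knockdown and 33.3 ± 0.399 kb in controls (SD, n = 2 each), a difference of 33.7 kb. Here the siRNAs differed by 3.25 kb only, while the length called as peak inside the chain was 57.3 kb under siRNA-1 and 31.3 kb under siRNA-2. In controls 1 and 2 the chains held 11.7 and 9.97 kb of peak.

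The added length lay between the genes and inside SUSD1, and little of it in UGCG. Inside SUSD1, 61.3 kb were called under siRNA-1 and 49.3 kb under siRNA-2, against 30.0 kb in control 1 and 29.5 kb in control 2. Between the genes the values were 47.5 kb under siRNA-1 and 20.9 kb under siRNA-2, against 14.0 kb in control 1 and 11.8 kb in control 2. The siRNAs lay furthest apart there, siRNA-1 having 26.6 kb more, and without siRNA-1 the knockdown minus control difference was 8.01 kb against 21.3 kb with it. Inside UGCG, 2.72 kb were called under siRNA-1 and 1.75 kb under siRNA-2, against 1.07 kb in control 1 and 0.976 kb in control 2. Without siRNA-1 the difference there was 0.731 kb against 1.21 kb with it. Before UGCG the groups overlapped, at 0.813 and 1.44 kb under siRNA-1 and siRNA-2, against 0.778 and 1.45 kb in controls 1 and 2. After SUSD1 they did not, at 2.08 kb under siRNA-1 and 1.90 kb under siRNA-2, against 0.167 kb in control 1 and 0.571 kb in control 2. Most of that length, and all of it in controls, belonged to the SUSD1 promoter region (chr9:114936262-114939759), which crosses the gene end. Past that region lay only peaks of 319 bp under siRNA-1 and of 216 and 247 bp under siRNA-2.

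**Figure D2:**
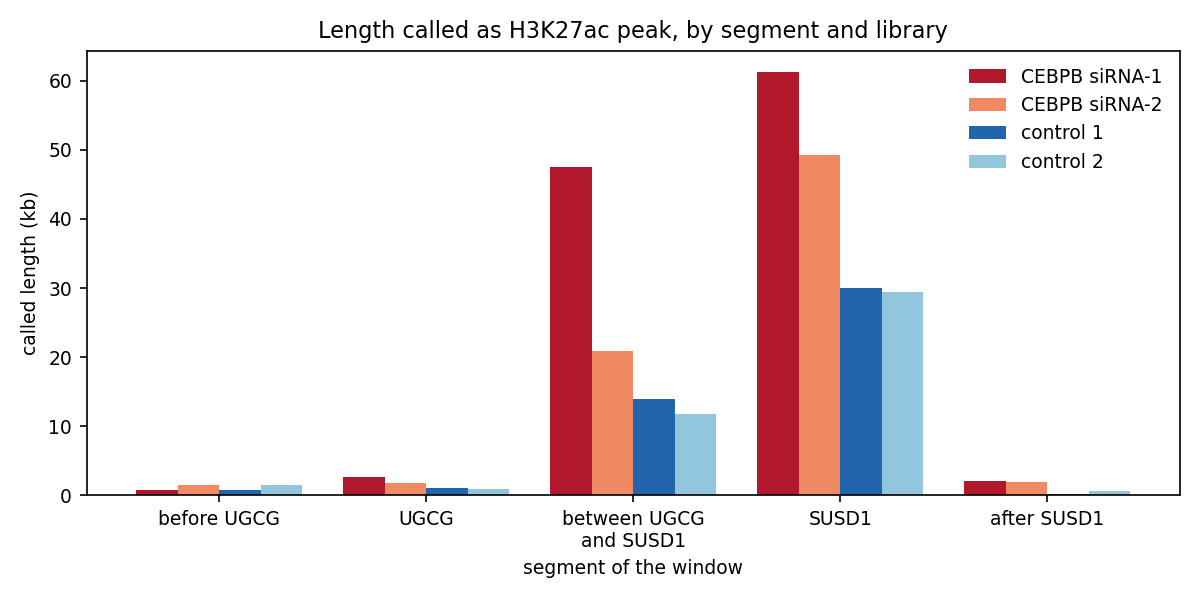
Length called as H3K27ac peak in each library, in kb, for the parts of the window from before UGCG to after SUSD1; each bar is 1 library. In the interval between the genes siRNA-1 stands at 47.5 kb and siRNA-2 at 20.9 kb, above 14.0 kb in control 1 and 11.8 kb in control 2.

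At the UGCG promoter a single peak was called in each library. It measured 3.02 kb under siRNA-1 and 2.47 kb under siRNA-2, against 1.85 kb in control 1 and 1.63 kb in control 2. It reached 1.13 kb further into the gene under siRNA-1 and 0.684 kb further under siRNA-2 than the control peaks did, while its upstream edge hardly differed. The authors' fold enrichment at its summit was 26.9 under siRNA-1, 13.4 under siRNA-2, 17.7 in control 1 and 10.0 in control 2. These are the authors' own values per peak and depend on depth, so fold enrichments and ranks describe a peak within its own list and are not compared between lists. By −log10 q the peak stood at percentile 86.5 of the siRNA-1 list, 76.7 of the siRNA-2 list, 79.4 of control 1 and 67.5 of control 2. In the rest of UGCG the only peaks were 2 of siRNA-1, of 236 and 282 bp.

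At the SUSD1 promoter end (chr9:114936262-114939759) the called length was 3489 bp under siRNA-1 and 3173 bp under siRNA-2, against 1788 bp in control 1 and 2204 bp in control 2. Its summits lay within 58 bp of each other in all 4 libraries. The summit fold enrichment was 27.5 under siRNA-1, 20.4 under siRNA-2, 24.6 in control 1 and 23.4 in control 2. Neither promoter peak was the highest of the stretch in any library.

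The peaks of the 4 lists merged into 44 regions, of which 11 were called in every library. All 11 were longer in both knockdown libraries than in both controls, a pattern found in 26.9% of the 24133 regions called in every library genome-wide. Mean knockdown over mean control length ran from 1.29 to 3.41 over the 11 regions, with a median of 1.84. All 11 were also longer under siRNA-1 than under siRNA-2, by 1.03 to 1.95 times with a median of 1.44. Genome-wide, 63% of the regions called in every library were longer under siRNA-1, and the median ratio was 1.08. Among the controls, 9 of the 11 were longer in control 1. Its whole list was also longer, at 67.9 Mb against 62.1 Mb in control 2, and no genome-wide share was computed for that count.

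**Figure D3:**
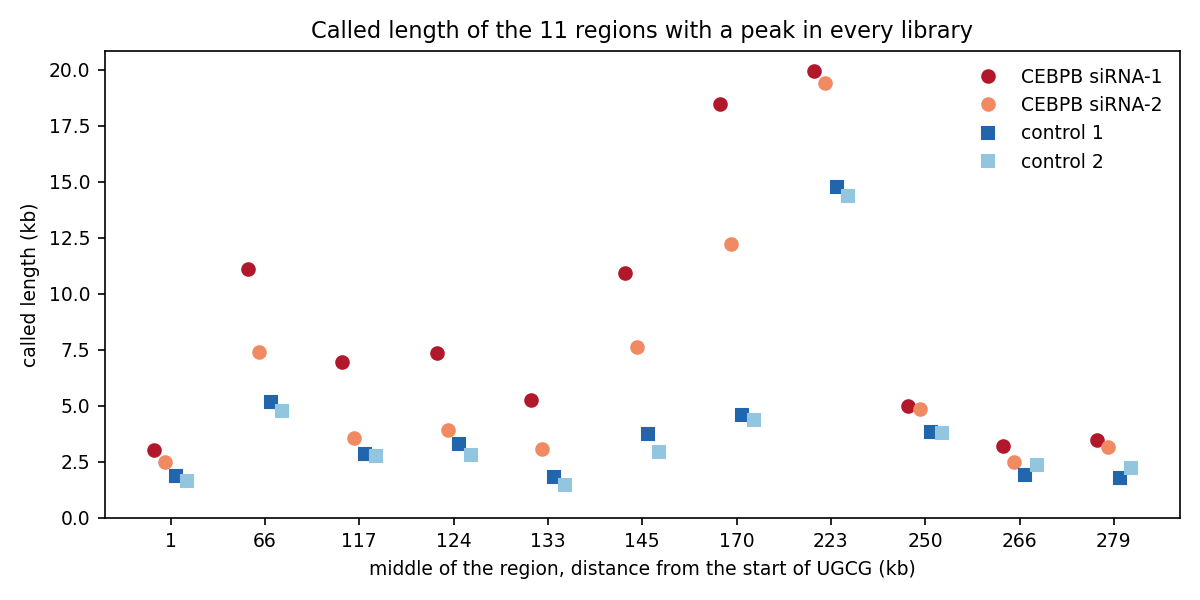
Called length in kb of the 11 regions with a peak in every library, ordered by the distance of their middle from the start of UGCG; circles are the siRNA libraries and squares the controls. In each region both circles lie above both squares, and the widest gap is in the region 170 kb from the start of UGCG.

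The region with the greatest difference lay inside SUSD1, towards its 3′ end (chr9:114819898-114838534). It had 18.5 kb called under siRNA-1 and 12.2 kb under siRNA-2, against 4.61 kb in control 1 and 4.38 kb in control 2. With siRNA-1 nearly all of it was a single peak of 18.1 kb, where the siRNA-2 list had 7 peaks over 11.9 kb, control 1 had 3 and control 2 had 5. Its outer ends moved little, by at most 1.32 kb beyond the control peaks, so most of the added length lay in the gaps between those. The summit of highest fold enrichment was at 114828749 under siRNA-1, at 114821643 under siRNA-2, at 114821537 in control 1 and at 114822016 in control 2. Under siRNA-2 the choice of measure moves it: the peak of highest −log10 q there had its summit at 114836658.

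The second greatest difference was at the 3′ end of SUSD1 (chr9:114798988-114809901), in the middle of the long chain. It had 10.9 kb called under siRNA-1 and 7.60 kb under siRNA-2, against 3.76 kb in control 1 and 2.95 kb in control 2. It held the highest peak of the siRNA-1 library in the stretch, with a fold enrichment of 87.3. That peak ranked at percentile 99.5 of its list by −log10 q, and the best peak there ranked at 96.7 under siRNA-2, 84.5 in control 1 and 87.9 in control 2. The region extended on both sides, by 3.50 and 3.19 kb beyond the control peaks under siRNA-1 and by 2.66 and 2.80 kb under siRNA-2.

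The longest region lay inside SUSD1 nearer to its promoter (chr9:114871482-114891593), and here the siRNAs hardly differed. It had 19.9 kb called under siRNA-1 and 19.4 kb under siRNA-2, against 14.8 kb in control 1 and 14.3 kb in control 2. The peaks were joined rather than extended: there were 2 under siRNA-1 and 2 under siRNA-2, against 3 in control 1 and 5 in control 2, and the outer ends lay within 0.493 kb of those of the controls. It held the highest peak of the siRNA-2 library, with a fold enrichment of 67.0. The next region (chr9:114906251-114911351), named after its values were seen, was also nearly equal with both siRNAs, at 5.00 and 4.84 kb, against 3.83 kb in control 1 and 3.78 kb in control 2.

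Between the genes, the regions were longest under siRNA-1, and in each named region called in several libraries and lying wholly there, siRNA-2 was nearer to control 1 than to siRNA-1. The region 66.4 kb from the start of UGCG (chr9:114719834-114730944) had 11.1 kb called under siRNA-1 and 7.40 kb under siRNA-2, against 5.17 kb in control 1 and 4.77 kb in control 2. It reached further towards UGCG than the control peaks, by 3.64 kb under siRNA-1 and 3.04 kb under siRNA-2. The summits of both siRNA libraries and control 1 lay within 7 bp of each other, at 114727612, 114727617 and 114727619, while that of control 2 was at 114728571, for a spread of 959 bp over the 4 libraries. The control 1 summit was the highest of that library in the stretch, with a fold enrichment of 44.9.

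Further on, a region at chr9:114772284-114779230 had 6.95 kb called under siRNA-1 and 3.57 kb under siRNA-2, against 2.84 kb in control 1 and 2.76 kb in control 2. Here siRNA-2 was much nearer to the controls than to siRNA-1, and the 4 summits lay within 10 bp. It held the highest peak of control 2, with a fold enrichment of 38.7. The next region (chr9:114779390-114786757) had 7.37 kb under siRNA-1 and 3.92 kb under siRNA-2, against 3.30 kb in control 1 and 2.82 kb in control 2. A region at chr9:114789556-114794819 had 5.26 kb under siRNA-1 and 3.08 kb under siRNA-2, against 1.81 kb in control 1 and 1.45 kb in control 2.

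Among the regions called in both siRNA libraries, one that was weak in the controls differed most between the siRNAs in relative terms (chr9:114754348-114758357). With siRNA-1 it was 1 peak of 4.01 kb with a fold enrichment of 29.2, and under siRNA-2 it was 3 peaks over 1.40 kb with fold enrichments of at most 6.27. Control 1 had 0.386 kb there and control 2 no peak. The siRNA-1 peak stood at percentile 87.7 of its list and the best siRNA-2 peak at 42.9.

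Called in both siRNA libraries and in neither control were 3 of the 44 regions, a share close to the 6.76% of the 60669 regions genome-wide. Counted without the siRNA-1 library there were 8 such regions, and without the siRNA-2 library 25. Those added were called with 1 siRNA alone, as were 7.98% of regions genome-wide for siRNA-2 and 13.1% for siRNA-1. The 3 regions lie outside the rule for named regions and are given after their values were seen. They lay in SUSD1 (chr9:114811341-114813536 and chr9:114860167-114860855) and beyond its promoter (chr9:114942356-114942698). The first, with 2.19 kb under siRNA-1 and 0.934 kb under siRNA-2, was the only one past the stricter −log10 q of 10 in each siRNA list. No region was called in both controls and in neither siRNA library, against 7.01% genome-wide. With control 1 left out, 2 regions were called in control 2 and in neither siRNA library. Of the bases called in both controls, 100% were called under siRNA-1 and 99.0% under siRNA-2.

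Many weak regions were called with 1 siRNA alone. In the siRNA-1 list 22 of the 44 regions stood alone, against 13.1% of regions genome-wide, and 5 stood alone in the siRNA-2 list, against 7.98%. The 22 regions of siRNA-1 were 236 to 1950 bp long with fold enrichments of 3.24 to 6.13, and their highest −log10 q was 9.15. The strongest of them by fold enrichment were at chr9:114737393-114738220 (6.13), chr9:114893075-114893762 (5.94) and chr9:114795021-114796970 (5.82). The 5 of siRNA-2 were 236 to 699 bp long with fold enrichments of at most 5.10. Control 2 had 2 regions of its own, of 314 and 482 bp, both upstream of UGCG, and control 1 had none.

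The siRNAs were nested: nearly all that siRNA-2 called, siRNA-1 called too. Of the bases called under siRNA-2, 96.7% were called under siRNA-1, while 63.6% of those called under siRNA-1 were called under siRNA-2. Such nesting was not particular to the siRNAs. Of the control 1 bases, 100% were called under siRNA-1 and 98.1% under siRNA-2, and of the control 2 bases 98.1% and 96.3%. Called by both siRNAs and by neither control were 25.1 kb. A further 40.4 kb were called under siRNA-1 alone and 2.49 kb under siRNA-2 alone, and 40.1 kb were called in all 4 libraries. The Jaccard index, the shared over the joint bases, was 0.623 between the siRNAs and 0.813 between the controls. Between a siRNA library and a control it ran from 0.376 to 0.402 for siRNA-1 and from 0.554 to 0.593 for siRNA-2.

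**Figure D4:**
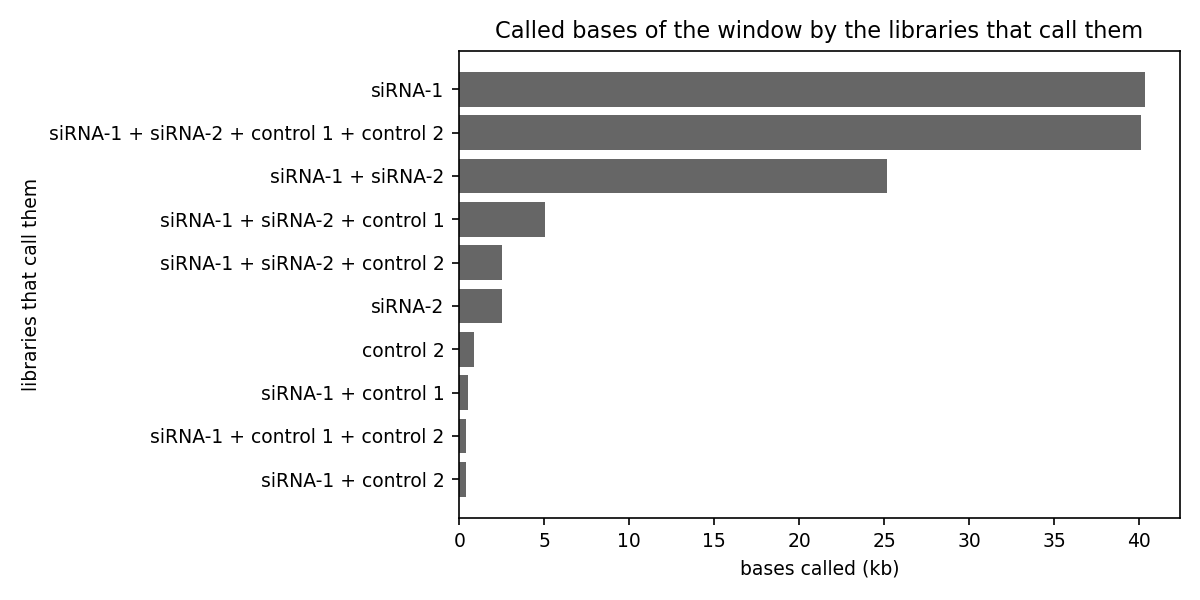
Bases of the window called as H3K27ac peak, in kb, by the set of libraries that call them; each bar is 1 set, and sets with no base are left out. The longest bars are siRNA-1 alone with 40.4 kb, all 4 libraries with 40.1 kb and both siRNAs without a control with 25.1 kb.

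The bases that no control called lay close to those that one did. With siRNA-1 they came to 65.5 kb, at a median distance of 1269 bp from the nearest base called in a control. With siRNA-2 they came to 27.6 kb, at a median of 606 bp. Of these bases 70.5% under siRNA-1 and 82.7% under siRNA-2 lay within the 11 regions called in every library. Regions called with 1 siRNA alone held 19.3% of them for siRNA-1 and 6.87% for siRNA-2. The summits of highest fold enrichment lay within 1000 bp of each other over the 4 libraries in 8 of the 11 regions. In the other 3 they spread over 1039, 5706 and 7212 bp, the last in the region with the greatest difference. The spread of 5706 bp, in the longest region, was already present between the controls. By highest −log10 q the summits of the 4 libraries there lay between 114882315 and 114882357.

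Total called length also differed between the lists. It was 70.4 Mb under siRNA-1 and 61.7 Mb under siRNA-2, against 67.9 Mb in control 1 and 62.1 Mb in control 2. The siRNA-1 list was thus 1.14 times as long as the siRNA-2 list, where in the stretch the ratio was 1.52. A ratio of 1.5 or more was found in 9.09% of the 1915 windows with 10 kb or more called with each siRNA. With each list cut to the same total of 61.7 Mb, keeping its peaks of highest −log10 q, the stretch had 101.9 kb under siRNA-1 and 75.3 kb under siRNA-2, against 44.3 kb in control 1 and 44.2 kb in control 2. The part of depth and list length in the difference between the siRNAs was not tested.

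Among the 5966 windows, the stretch ranked 1 by the difference between mean knockdown and mean control length and 1 by the difference between the siRNAs. The next greatest difference between the groups was 38.1 kb, and the median was 0.125 kb. Relative to its controls the stretch stood out less. Of the 2064 windows with a control mean of 10 kb or more, 11 had a ratio as high or higher, itself included. By control length it ranked 216, by siRNA-1 length 7 and by siRNA-2 length 40. The stretch was chosen for its greater called length after knockdown, and the windows were laid in phase with it. Nothing is therefore read from these ranks.

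**Figure D5:**
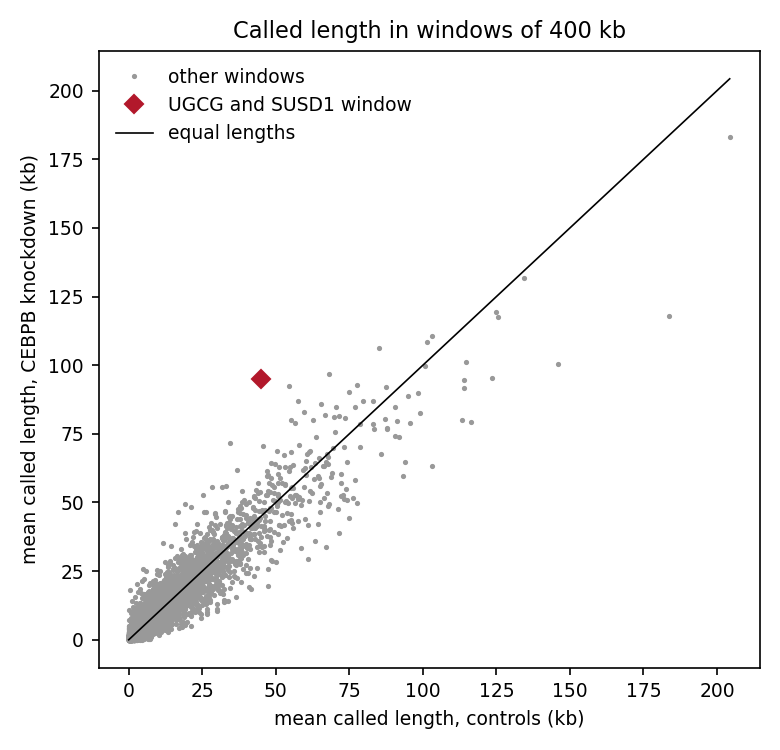
Mean called length after CEBPB knockdown against that in controls, in kb, for the 5966 windows of 400 kb with a peak; the diamond is the UGCG and SUSD1 window and the line marks equal lengths. The diamond lies at 94.9 kb after knockdown and 45.1 kb in controls, farther above the line than any other window. That window was chosen for this difference.

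Outside the stretch the difference was small. In the 400 kb before it, 19.3 kb were called under siRNA-1 and 15.7 kb under siRNA-2, against 14.7 kb in control 1 and 14.6 kb in control 2, so both siRNA libraries were still above both controls. In the 400 kb after it, 11.1 kb were called under siRNA-1 and 13.3 kb under siRNA-2, against 12.2 kb in control 1 and 10.7 kb in control 2, so the groups overlapped there. The outermost peaks inside the stretch lay 28.8 to 61.8 kb from its ends. The nearest peaks outside were 11.7 to 108 kb away and were 238 to 1580 bp long, with fold enrichments of 3.80 to 9.56.

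The windows most like it were sought by the Euclidean distance over the called lengths of the 4 libraries. The closest, at 16.8 kb, was chromosome 11 from 86.2 to 86.6 Mb, with 104.9 kb under siRNA-1 and 80.0 kb under siRNA-2, against 55.4 kb in control 1 and 53.3 kb in control 2. Next came chromosome 15 from 63.0 to 63.4 Mb at a distance of 23.4 kb, chromosome 7 from 115.8 to 116.2 Mb at 27.9 kb and chromosome 22 from 36.6 to 37.0 Mb at 30.4 kb. The fifth was chromosome 8 from 129.0 to 129.4 Mb at 33.9 kb. In all 5 the knockdown mean exceeded the control mean, by 17.7 to 38.1 kb. That excess follows from picking them by closeness in these same lengths, so nothing is read from it.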

How the data were processed

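H3K27ac was measured by chromatin immunoprecipitation with 101-base single-end reads, in 2 knockdown and 2 control libraries. The 4 input libraries were not analysed here. MACS2 2.2.7.1, BWA 0.7.17 and SAMtools 1.7.0, with the build hg19, are named in the submitters' processing notes. Options, and any use of input in peak calling, are not stated there. The deposited lists, 1 per library, give each peak's fold enrichment (a linear ratio made by the authors), its −log10 p and −log10 q and a score that is 10 times −log10 q, truncated, in nearly all peaks. They hold no read counts, so depth is unknown and an absent peak is an absent call. The offset of the summit from the peak start was also deposited.

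Positions are 1-based. Peaks were merged across lists by 1 bp of overlap, and chained within 10 kb for clusters. Windows of 400 kb were laid in phase with the stretch. Regions were named where they held a promoter end, the highest peak of a library, 1 of the 8 greatest length differences, or 1 of the 3 strongest calls of a single siRNA. The 5 most similar windows were named too. The members, lists and settings were chosen with earlier results of these data known. No test was made: 2 libraries against 2 allow no exact permutation p below 0.333. The counting was tested on simulated data. Genes of glycosphingolipid synthesis were not placed, since no hg19 annotation was used here. Alternatives were a stricter −log10 q, equal called length, each library left out, other joining, overlap and edges. Python 3.11.15, numpy 2.4.6, pandas 2.3.3 and matplotlib 3.10.9 were used.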

Additional observations from a re-analysis of the deposited data

How the results depend on the processing

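The greater called length after knockdown kept its direction in all 9 alternatives, from 30.2 to 69.3 kb. Without siRNA-1 it was 30.2 kb, and without siRNA-2 69.3 kb, against 49.7 kb with all libraries. The difference within the numbers of the labels (replicate block) averaged 49.7 kb, the same by construction, and changed no direction. The greater number of peaks depended on weak calls. The difference of 15.5 was 0.5 at a −log10 q of 10 or more and 6.5 at equal called length. The latter came from 16 peaks under siRNA-1 and 40 under siRNA-2, against 17 in control 1 and 26 in control 2. There siRNA-1 lay below both controls. The difference in peak number was 4 with peaks joined within 1 kb and 18.5 in a window widened by 100 kb on each side. It ranged from 13.5 to 17.5 with a library left out. The 3 gained regions became 1 at a −log10 q of 10 or more and 3 to 25 with a library left out (8 without siRNA-1, 25 without siRNA-2), since fewer calls are then required. Lost regions numbered 0, but 0 to 2 with a library left out (2 without control 1) and 5 where a match needed 50% reciprocal overlap, which peaks of unequal length can fail by construction. The difference in the longest chain was 33.7 kb, 39.1 kb at the stricter −log10 q and 25.2 kb with chains joined within 5 kb, and 32.1 to 35.3 kb with a library left out. The siRNA-1 excess over siRNA-2 of 39.1 kb was 33.5 kb at the stricter −log10 q, 26.6 kb at equal called length, 37.7 kb in the wider window and 37.3 kb with each siRNA set against the control of its number. By segment, with a library left out, the knockdown minus control difference ranged from 8.01 to 34.6 kb between the genes and from 19.6 to 31.6 kb in SUSD1. Without siRNA-1, the value between the genes was 8.01 kb against 21.3 kb with all libraries, and in UGCG it was 0.731 kb against 1.21 kb. The share of windows longer in both knockdown libraries was 30.6% at equal length and 30.3% at the stricter −log10 q, alternatives chosen after seeing the data.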
